A study of Mus musculus with 6 samples.

Results

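Peroxisomal genes were examined in livers that lacked Cpt2 in hepatocytes. The set was a list of 34 named genes, made up of 12 peroxins and 22 genes of enzymes, transporters and membrane proteins. The genes were chosen by symbol, with earlier results of these data known. A gene was read from the probe set whose platform annotation names that gene alone, and where several did so, from the one with the highest mean over the 6 arrays. Of the 34 genes, 30 had such a probe set, among 20242 genes in all. The other 4, Acaa1a, Acaa1b, Decr2 and Gnpat, shared their probe sets with another gene, and they are described separately. The 30 comprise all 12 peroxins and 18 of the 22 other genes.

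Peroxisomes are organelles bounded by a single membrane that shorten very long, branched and dicarboxylic fatty acids by beta-oxidation, complete the side chains of bile acids, begin the synthesis of ether lipids, and break down the hydrogen peroxide their oxidases make. Peroxins insert their membrane proteins and import their matrix enzymes. In mouse liver many of these genes are switched on by PPARA, a nuclear receptor for fatty acids that is active during fasting.

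The mutant livers came from Cpt2KO mice, which carried floxed Cpt2 alleles together with Albumin-Cre, a recombinase driven by a promoter active in hepatocytes (3 mice). WT here means floxed mice without Cre (3 mice), so no group lacks the floxed alleles and none carries Cre alone. All 6 were C57BL/6 males fasted for 24 hours. Cpt2 encodes the mitochondrial inner membrane enzyme that returns imported acylcarnitines to acyl-CoA, and the comparison asks how its loss in hepatocytes changed liver RNA after a fast. Listed ages were 12, 13 and 14 weeks in Cpt2KO mice and 9, 10 and 11 weeks in WT mice, although the growth protocol gives 9 weeks, so that listed age and genotype do not overlap.

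Whole liver RNA from each mouse was measured on 1 exon array, with 1 value per probe set on the log2 scale, so that a difference of 1 is a 2-fold change. Values of different genes are not comparable as levels, because probes differ in brightness. Arrays correlated at r = 0.985 to 0.987 among Cpt2KO livers, 0.988 to 0.989 among WT livers and 0.969 to 0.977 between genotypes. Cpt2 itself was at 6.48, 6.73 and 6.75 in Cpt2KO livers, against 7.56, 7.72 and 7.63 in WT livers, a fall to 50.5% of WT (log2 fold change -0.99, SE 0.11, adjusted p = 0.0013 by limma). Markers were tested by limma like all other genes, of which 4.74% were higher and 3.49% lower in Cpt2KO livers at adjusted p under 0.05. The values carry no detection calls, so the tissue label could not be checked by presence or absence. Of 10 hepatocyte markers measured, 4 were lower in Cpt2KO livers (Alb, Ttr, F2 and Fgb) and 0 higher. All 10 had a log2 fold change below 0 (median -0.32), and 7 lay wholly below WT. The log2 of their mean linear signal was 10.74 to 11.07 in Cpt2KO arrays and 11.10 to 11.29 in WT arrays. Of 9 macrophage markers Cd68 was higher and Marco lower, and 8 of the 9 had a log2 fold change below 0 (median -0.33). Their mean linear signal was 6.78 to 7.25 in Cpt2KO and 6.42 to 6.89 in WT arrays (log2), and their mean of log2 values 6.28 to 6.53 in Cpt2KO and 6.20 to 6.65 in WT arrays. Of 7 endothelial markers Lyve1 was higher and the other 6 overlapped. Their mean linear signal was 7.44 to 7.57 in Cpt2KO and 7.27 to 7.39 in WT arrays (log2), and their mean of log2 values 7.15 to 7.32 in Cpt2KO and 7.08 to 7.19 in WT arrays. No marker passed among 8 of stellate cells, 4 of cholangiocytes (3.69 to 4.05 in Cpt2KO and 4.09 to 4.27 in WT arrays), 5 of lymphocytes, 5 of neutrophils and 4 of adipocytes. In whole liver RNA, fewer cells of a type and less RNA per cell cannot be told apart, and the part of these marker shifts in the results below was not tested.

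Of the 30 peroxisomal genes, 2 rose in Cpt2KO livers, 6 fell and 22 did not pass the threshold. A gene is said to have risen or fallen where its adjusted p was under 0.05 by limma's moderated test over all 20242 genes. Pex11a and Ehhadh rose, and Pecr, Acox2, Pex26, Amacr, Pxmp2 and Pex7 fell. The called share was 26.7%, against 8.24% of all genes, which divides into 4.74% called higher and 3.49% called lower. Of the 30 genes, 29 lay above the median level of all genes, where tests pass more often, and 14.7% of the genes above that level were called, 8.48% higher and 6.2% lower. At an unadjusted p under 0.05, 19 of the 30 passed, against 20.2% of all genes. The median log2 fold change of the 30 was -0.0022 and that of all genes -0.0084, and 15 of the 30 lay above 0. Over the genes above the median level the median was 0.027. The median size of change, whatever its sign, was 0.31 in the set and 0.12 over all genes. Values of the Cpt2KO arrays lay wholly above those of the WT arrays for 10 of the 30 genes and wholly below for 9, against 13.9% and 11.1% of all genes, or 25.1% in either direction. Unadjusted p, size of change and overlap are set only against all genes, not against genes above the median level. Because the list was chosen with earlier results of these data known, these shares describe the set and do not test it.

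**Figure D1:**
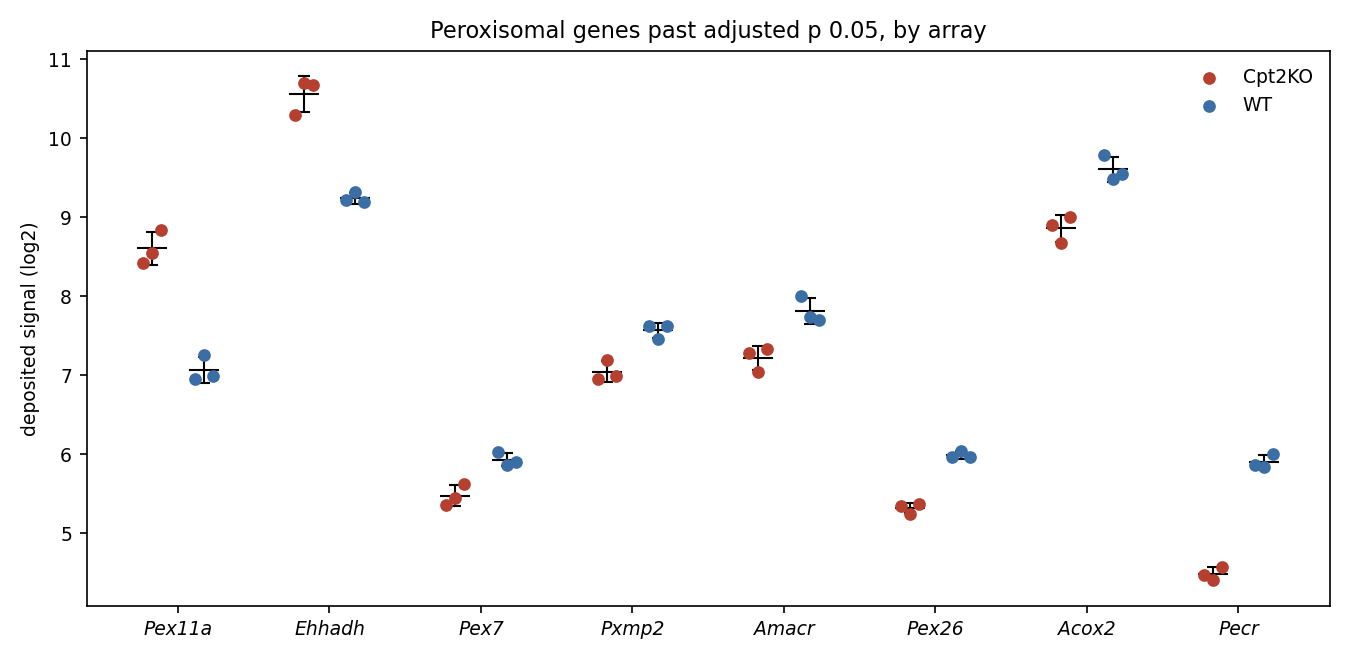
Deposited log2 signal of the 8 peroxisomal genes past adjusted p 0.05, each point 1 array, with Cpt2KO to the left of WT for each gene and genes in order of fold change. Horizontal marks are means and bars are SD (n = 3 per group). Pex11a and Ehhadh are higher in every Cpt2KO array, the other 6 genes are lower in every Cpt2KO array, and the distance between the genotypes is widest for Pex11a, Pecr and Ehhadh.

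Among the 12 peroxins, 1 rose, 2 fell and 9 did not pass. The share called was 8.24% of all genes and 14.7% of those above the median level. The groups by role here and below are small, and their counts were not tested against these shares. Pex11a, a membrane protein that elongates peroxisomes before they divide, was at 8.42, 8.55 and 8.84 in Cpt2KO livers, against 6.95, 7.26 and 6.99 in WT livers. Every Cpt2KO value exceeded every WT value by more than the spread within either genotype. The means were 8.60 ± 0.21 in Cpt2KO livers and 7.07 ± 0.17 in WT livers (SD, n = 3 each), a 2.90-fold rise (log2 fold change 1.54, SE 0.14, adjusted p = 0.000477 by limma). Pex26, which anchors the export motor of the import receptors to the membrane, was at 5.34, 5.24 and 5.37 in Cpt2KO livers, against 5.96, 6.04 and 5.97 in WT livers. These groups were far apart relative to their SDs of 0.07 in Cpt2KO and 0.05 in WT livers, and the mean was at 62.8% of WT (log2 fold change -0.67, SE 0.09, adjusted p = 0.00323 by limma). Pex7, the receptor that carries enzymes with an N-terminal targeting signal, was at 5.35, 5.45 and 5.62 in Cpt2KO livers, against 6.02, 5.87 and 5.90 in WT livers. It fell by 0.46 (SE 0.11, adjusted p = 0.035 by limma), to 72.8% of WT. When each array was dropped in turn, Pex7 passed in 1 of 6 fits, that without Cpt2KO replicate 3. In the other 5 its adjusted p by limma was 0.0816 to 0.121.

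Pex3, Pex16 and Pex19 insert proteins into the peroxisomal membrane. Each had all 3 Cpt2KO values above all 3 WT values, as did 13.9% of all genes. Pex19, the soluble receptor of this step, came closest to the threshold, with 7.19, 7.19 and 7.33 in Cpt2KO livers and 6.90, 6.60 and 6.91 in WT livers (log2 fold change 0.43, SE 0.12, adjusted p = 0.0619 by limma). Pex16 had a log2 fold change of 0.38 (adjusted p = 0.124 by limma) and Pex3, which holds Pex19 at the membrane, one of 0.32 (adjusted p = 0.118 by limma). The same arrangement without overlap held for Pex6, a subunit of the export motor that Pex26 anchors, and for Pex5, the receptor for C-terminal targeting signals. Their log2 fold changes were 0.34 and 0.17, with 95% intervals of 0.06 to 0.61 for Pex6 and -0.07 to 0.40 for Pex5. The docking proteins Pex13 (log2 fold change 0.29) and Pex14 (0.05) and the ubiquitin ligase subunits Pex2 (-0.26) and Pex10 (-0.13) overlapped between the genotypes. Over the 12 peroxins the median log2 fold change was 0.23, and 8 of the 12 were above 0, against 9712 of all 20242 genes. Above the median level, where all 12 peroxins lay, 5504 of 10121 genes were above 0, with a median of 0.027. Values lay wholly above WT for 6 of the 12 and wholly below for 2, against 13.9% and 11.1% of all genes. Without Cpt2KO replicate 3 the median of the 12 was 0.12, against 0.19 to 0.25 without each of the other arrays. With listed age as a covariate it was 0.02, with 6 of the 12 above 0, and Pex6 was then at -0.04, Pex13 at -0.16, Pex14 at -0.21 and Pex10 at 0.12. Pex11g, a peroxin outside the 12, had all Cpt2KO values below all WT values (log2 fold change -0.38, adjusted p = 0.101 by limma).

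**Figure D2:**
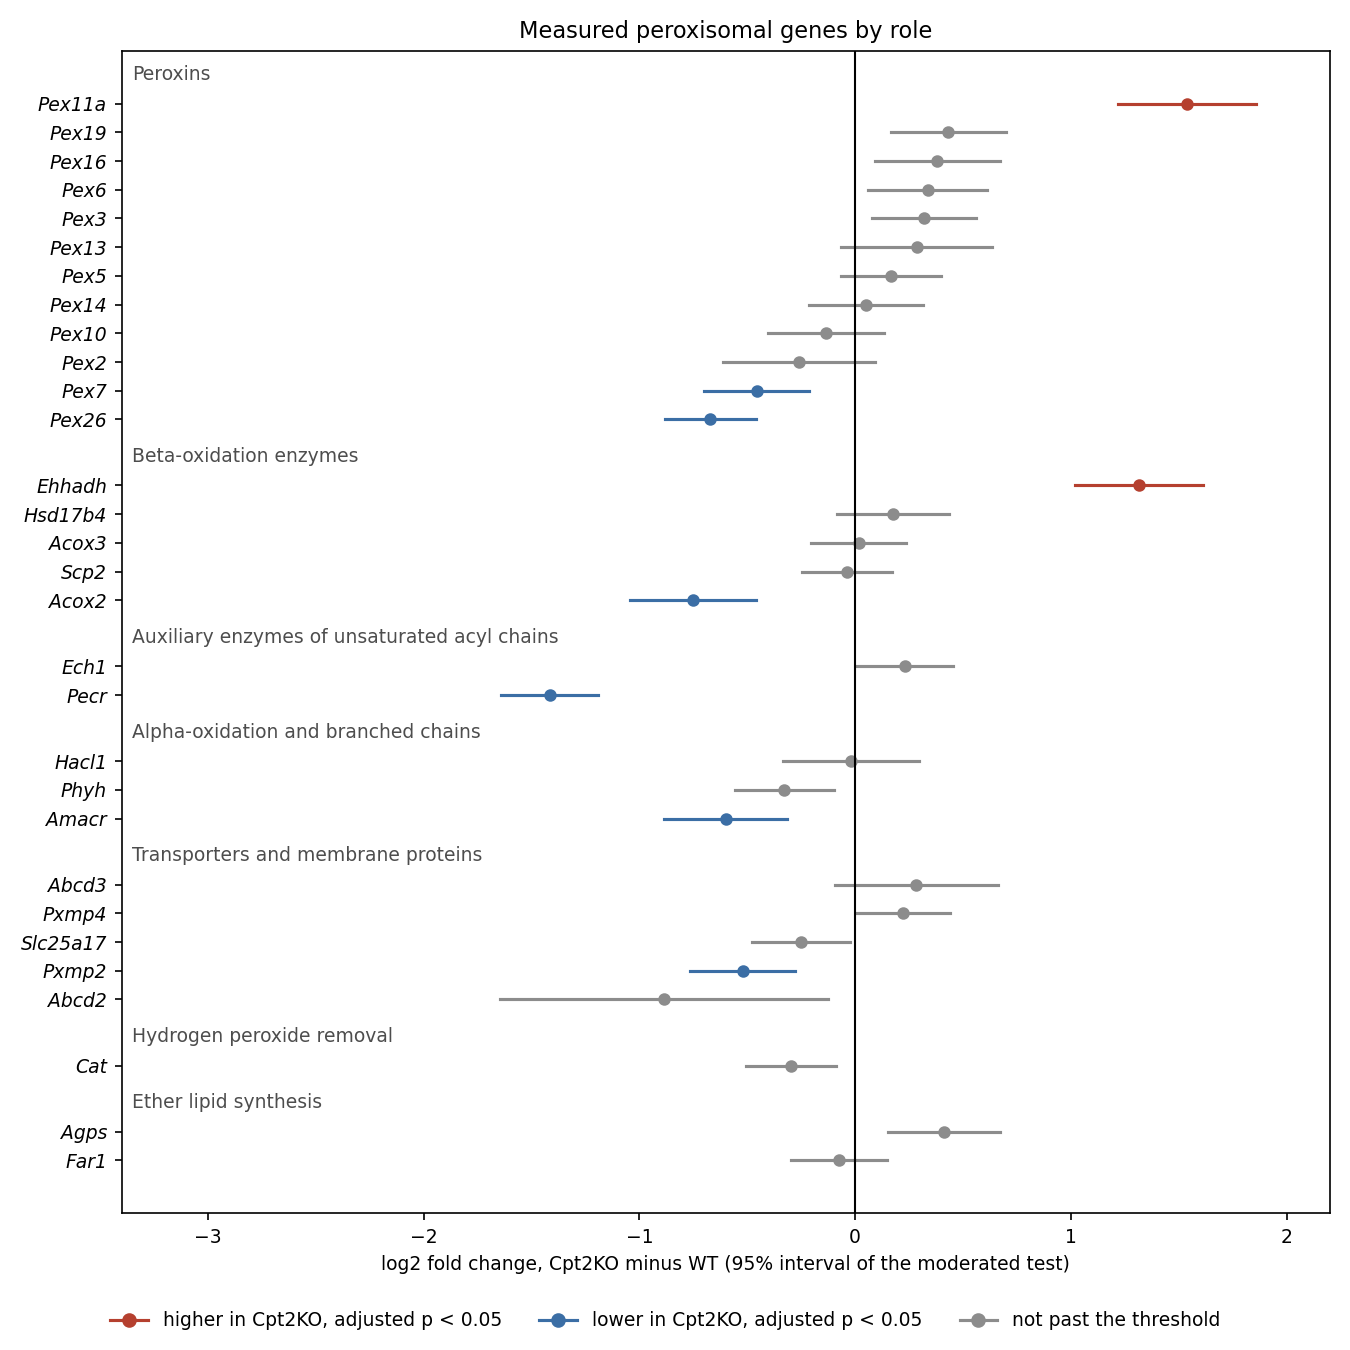
Log2 fold change of each of the 30 measured genes, Cpt2KO minus WT, with the 95% interval of the moderated test, grouped by role and ordered within each group. Red marks genes that rose, blue those that fell and grey those that did not pass. Pex11a at 1.54 and Ehhadh at 1.32 stand at the right, Pecr at -1.41 at the left, and the interval of Abcd2 is the widest.

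Of the 5 measured enzymes of the beta-oxidation cycle, Ehhadh rose, Acox2 fell and 3 did not pass, while 8.24% of all genes were called. Ehhadh encodes the L-bifunctional enzyme, which hydrates and dehydrogenates straight-chain and dicarboxylic acyl chains. Its values were 10.29, 10.70 and 10.67 in Cpt2KO livers, against 9.21, 9.32 and 9.19 in WT livers. The genotypes did not overlap, and the mean was 2.49-fold higher in Cpt2KO livers (log2 fold change 1.32, SE 0.13, adjusted p = 0.000713 by limma). Hsd17b4, the D-bifunctional enzyme that catalyses the same steps with the opposite stereochemistry and serves branched chains and bile acid precursors, did not pass. It was at 9.35, 9.34 and 9.63 in Cpt2KO livers, against 9.37, 9.22 and 9.21 in WT livers, with a log2 fold change of 0.18 (95% interval -0.08 to 0.44). The difference between these 2 genes' changes was not tested.

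The peroxisomal acyl-CoA oxidases in the set, which open the cycle and release hydrogen peroxide, differed in their values. Acox2, in rodents the oxidase of bile acid precursors, was at 8.90, 8.67 and 9.01 in Cpt2KO livers, against 9.79, 9.49 and 9.55 in WT livers. All Cpt2KO values were below all WT values, and the mean was at 59.4% of WT (log2 fold change -0.75, SE 0.13, adjusted p = 0.00875 by limma). Acox3, in rodents an oxidase of branched chains, was at 5.46, 5.45 and 5.60 in Cpt2KO livers, against 5.54, 5.41 and 5.51 in WT livers. Its genotypes overlapped, and the log2 fold change was 0.02 (95% interval -0.20 to 0.23). A second, dimmer probe set of Acox3 gave 2.75, 2.52 and 2.32 in Cpt2KO livers and 2.81, 2.93 and 2.71 in WT livers. Scp2, whose longer product is a thiolase of branched chains and bile acid precursors, was at 11.70, 11.74 and 11.78 in Cpt2KO livers, against 11.85, 11.73 and 11.75 in WT livers. Its log2 fold change was -0.04 (95% interval -0.25 to 0.17), and a second Scp2 probe set gave 0.11, so both lay within a small range on either side of 0.

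Acaa1a and Acaa1b encode 2 closely related mouse thiolases that close the cycle for straight chains, and each of their 2 probe sets names both genes. The first was at 8.76, 8.92 and 8.93 in Cpt2KO livers, against 8.20, 8.21 and 8.29 in WT livers. The second was at 9.94, 10.18 and 10.32 in Cpt2KO livers, against 8.99, 9.24 and 9.41 in WT livers. Both were higher in every Cpt2KO array, by 0.64 (SE 0.13) and 0.93 (SE 0.18) on the log2 scale, and which of the 2 genes contributed cannot be read from them. They could be tested only over all 115050 probe sets, where their adjusted p-values by limma were 0.170 and 0.134. In that wider test Pecr, Pex11a and Ehhadh passed (adjusted p = 0.021, 0.0331 and 0.0426 by limma), while Pex26, Acox2, Amacr, Pxmp2 and Pex7 did not (adjusted p = 0.141 to 0.393).

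Pecr showed the largest fall in the set. It encodes an enzyme that reduces trans-2-enoyl-CoA and takes part in the metabolism of phytol. Its values were 4.47, 4.41 and 4.57 in Cpt2KO livers, against 5.86, 5.84 and 6.00 in WT livers. The 3 values of each genotype lay close together and the genotypes far apart, with SDs of 0.08 in Cpt2KO and 0.09 in WT livers. The mean Cpt2KO signal was 37.5% of that in WT livers (log2 fold change -1.41, SE 0.10, adjusted p = 0.000166 by limma). Ech1, an isomerase of dienoyl-CoA found in peroxisomes and mitochondria, was at 8.10, 8.19 and 8.32 in Cpt2KO livers, against 8.0, 7.97 and 7.94 in WT livers. The groups did not overlap but the difference was small (log2 fold change 0.23, SE 0.10, adjusted p = 0.228 by limma). The probe set that names Decr2, a reductase of polyunsaturated chains, together with Fam234a was at 7.51, 7.52 and 7.50 in Cpt2KO livers, against 7.22, 7.26 and 7.28 in WT livers. This difference of 0.26 exceeded the spread within each genotype but did not pass over all probe sets (adjusted p = 0.641 by limma).

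Branched chains enter peroxisomal oxidation through alpha-oxidation and racemisation. Of the 3 genes measured here 1 fell and 2 did not pass, against 3.49% of all genes called lower. Amacr, the racemase that prepares branched chains and bile acid precursors for oxidation, was at 7.28, 7.04 and 7.33 in Cpt2KO livers, against 8.0, 7.74 and 7.70 in WT livers. It fell by 0.60 (SE 0.12, adjusted p = 0.0217 by limma), to 66.0% of WT. Amacr lost the call without Cpt2KO replicate 2, WT replicate 1 or WT replicate 2, with adjusted p-values by limma of 0.0667, 0.0722 and 0.054. Phyh, the hydroxylase that begins the breakdown of phytanic acid, was at 9.85, 9.71 and 9.86 in Cpt2KO livers, against 10.22, 10.03 and 10.15 in WT livers. All 3 Cpt2KO values were lower, with a log2 fold change of -0.33 that did not pass (SE 0.10, adjusted p = 0.0936 by limma). Hacl1, the lyase of the next step, overlapped between genotypes, with a log2 fold change of -0.02 (95% interval -0.34 to 0.30).

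Of 5 transporters and membrane proteins, 1 fell, against 3.49% of all genes and 6.2% of those above the median level. Pxmp2, a channel-forming membrane protein, was at 6.95, 7.19 and 6.99 in Cpt2KO livers, against 7.62, 7.46 and 7.62 in WT livers. It fell by 0.52 (SE 0.11, adjusted p = 0.0205 by limma), to 69.6% of WT. With each array dropped in turn, Pxmp2 passed in 2 of 6 fits, those without Cpt2KO replicate 2 and without WT replicate 2. Without Cpt2KO replicate 1 or 3 its adjusted p by limma was 0.0739 and 0.0614, and without WT replicate 1 or 3 it was 0.0763 and 0.0808. Pxmp4, another peroxisomal membrane protein, had all Cpt2KO values above all WT values (log2 fold change 0.22, adjusted p = 0.238 by limma). Slc25a17, a carrier of coenzyme A and other cofactors, had all Cpt2KO values below them (-0.25, adjusted p = 0.202 by limma).

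Abcd2 and Abcd3 are transporters of the ABC family that carry acyl-CoA into the peroxisome. Abcd2 was at 6.04, 6.25 and 7.05 in Cpt2KO livers, against 6.90, 7.10 and 8.01 in WT livers. In both genotypes replicate 3 stood well above the other arrays, and the groups overlapped. The SDs were 0.53 in Cpt2KO and 0.59 in WT livers, and the log2 fold change of -0.89 did not pass (SE 0.33, 95% interval -1.65 to -0.13, adjusted p = 0.174 by limma). Abcd3, also known as PMP70, was at 9.01, 9.47 and 9.68 in Cpt2KO livers, against 9.10, 9.18 and 9.03 in WT livers. One Cpt2KO value lay below all WT values and the others above them, and the log2 fold change was 0.28 (95% interval -0.09 to 0.66).

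Cat, the catalase that removes hydrogen peroxide, was at 10.96, 11.09 and 11.04 in Cpt2KO livers, against 11.30, 11.33 and 11.36 in WT livers. The groups did not overlap, and the log2 fold change of -0.30 (SE 0.09) did not pass (adjusted p = 0.0933 by limma). Ether lipid synthesis begins with Gnpat and Agps on the inner side of the peroxisome, with fatty alcohol supplied by Far1. Agps was at 5.03, 4.85 and 5.21 in Cpt2KO livers, against 4.61, 4.66 and 4.59 in WT livers. All Cpt2KO values were higher, and the difference of 0.41 came close to the threshold (SE 0.11, adjusted p = 0.0646 by limma). Far1 overlapped, with a log2 fold change of -0.07 (95% interval -0.30 to 0.15), and was the 1 gene of the 30 below the median level of all genes. The probe set shared by Gnpat and Trim67 overlapped as well, with a difference of -0.07.

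**Figure D3:**
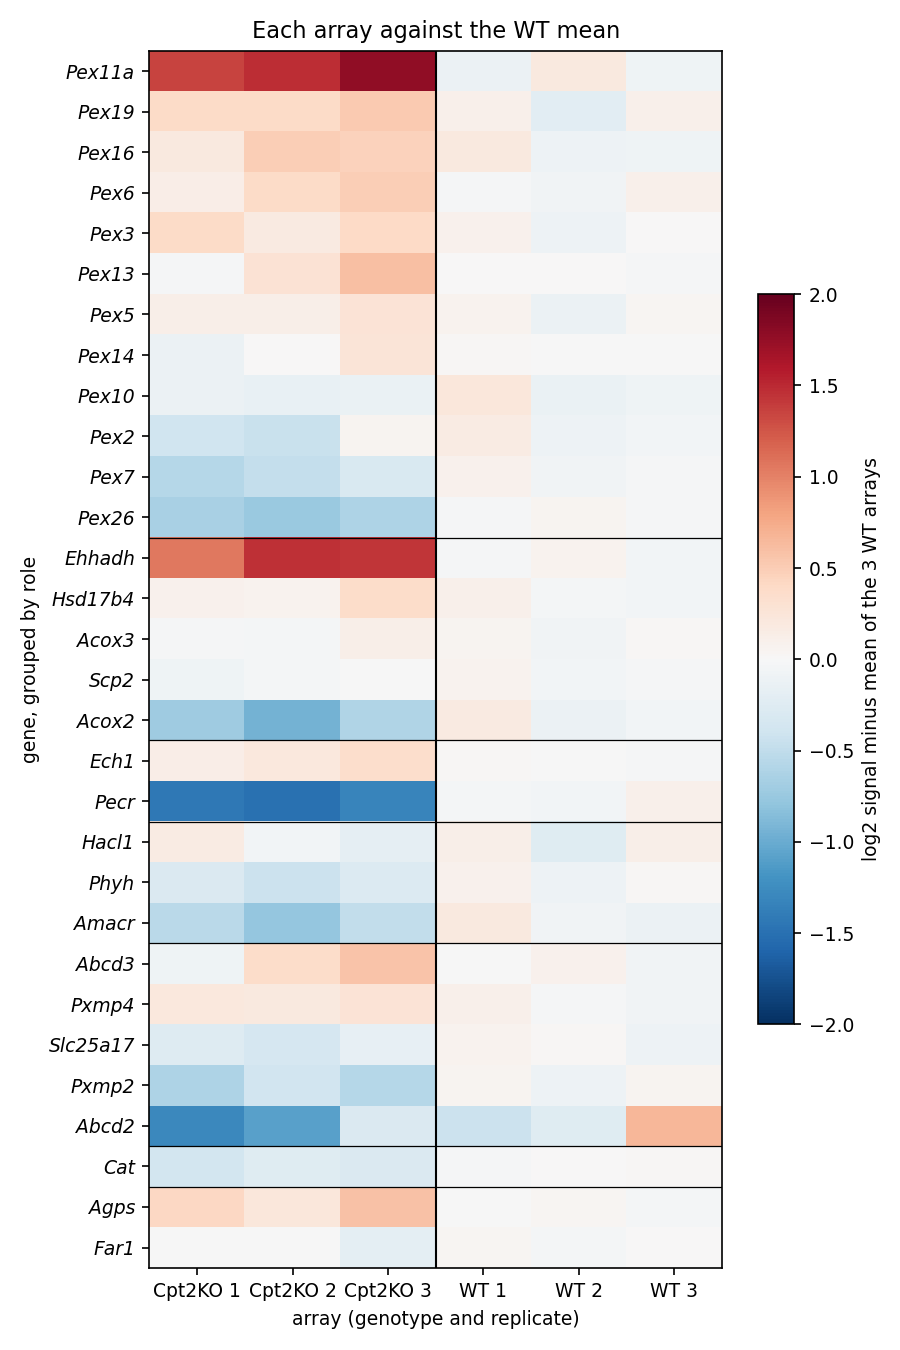
Log2 signal of the 30 measured genes in each array minus the mean of the 3 WT arrays, with Cpt2KO arrays to the left of WT arrays and genes grouped by role (black lines). The rows of Pex11a and Ehhadh are red and that of Pecr blue in all 3 Cpt2KO arrays. In the row of Abcd2 replicate 3 is the highest array of each genotype.

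Within each genotype the arrays were not alike in their level of these genes. Cpt2KO replicate 3 was the highest of its genotype for 23 of the 30 genes (76.7%), against 49.9% of all genes above the median level and 32.1% of all genes. WT replicate 1 was the highest of its genotype for 19 of the 30. The median deviation from the genotype mean over the 30 genes was 0.097 for Cpt2KO replicate 3 and 0.064 for WT replicate 1 (log2). The deposited median of Cpt2KO replicate 3 over all probe sets was 2.78, against 2.91 and 2.92 in the other Cpt2KO arrays. Without Cpt2KO replicate 3, 7 of the 8 calls remained, and Pxmp2 was the one lost.

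The other genes of the organelle were taken from a separate list of 42, also chosen with earlier results of these data known. Of the 42, 33 had a probe set of their own. Of these 33, 4 rose, 5 fell and 24 did not pass, where 8.24% of all genes and 14.7% of those above the median level were called. Their median change was 0.05 on the log2 scale, -0.04 with the probe sets of a gene averaged and -0.08 with listed age as a covariate. The largest fall was that of Hao1, the glycolate oxidase of hepatocyte peroxisomes, which was at 5.77, 6.32 and 6.25 in Cpt2KO livers, against 8.35, 8.15 and 8.17 in WT livers. Its Cpt2KO mean was 23.2% of WT (log2 fold change -2.11, SE 0.15, adjusted p = 0.000209 by limma). Pipox, the oxidase of pipecolate and sarcosine, fell by 1.03, Baat, which joins bile acids to taurine or glycine, by 0.97, and the glutathione transferase Gstk1 by 0.52 (adjusted p = 0.00241, 0.00106 and 0.0111 by limma). The largest rise was that of Far2, which like Far1 reduces fatty acyl-CoA to fatty alcohol. Its values were 5.04, 4.39 and 4.02 in Cpt2KO livers, against 2.67, 2.51 and 2.65 in WT livers, a log2 fold change of 1.87 (SE 0.23, adjusted p = 0.00194 by limma). In WT livers Far2 was dimmer than most probe sets, whose median was 2.88. Crat, the carnitine acetyltransferase, rose by 0.86 (adjusted p = 0.00203 by limma). The remaining 3 that passed, Acot8, Tmem135 and Uox, lost the call in at least 5 of the 6 fits with an array dropped, and the number that rose was then 2 or 3.

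**Figure D4:**
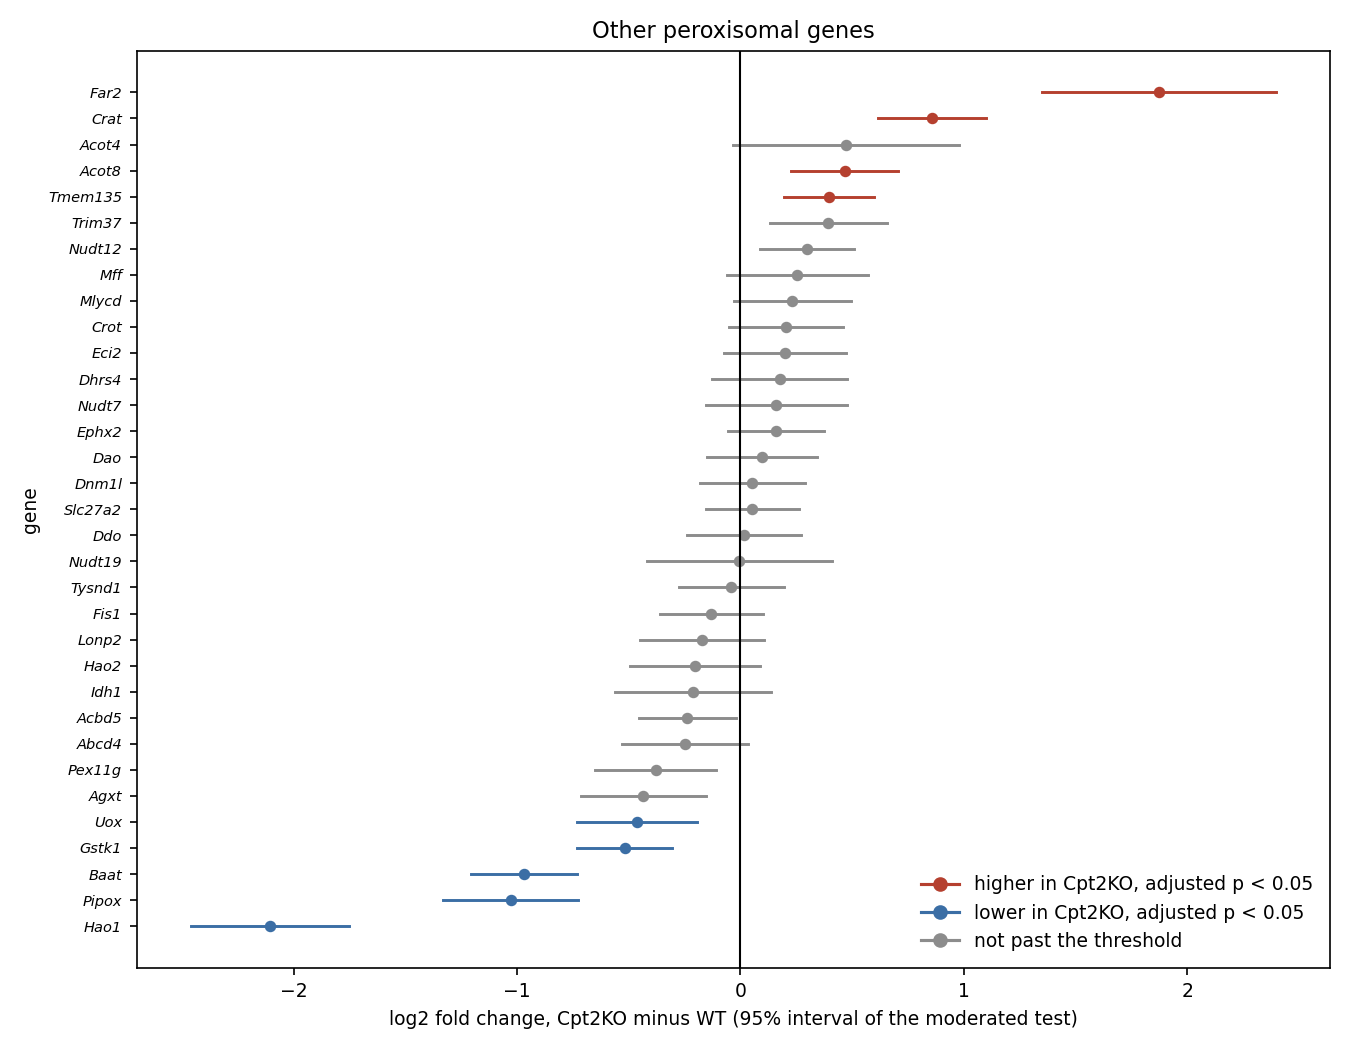
Log2 fold change of the 33 other peroxisomal genes, Cpt2KO minus WT, with the 95% interval of the moderated test, ordered by size. Red marks the 4 that rose, blue the 5 that fell and grey the rest. Far2 at 1.87 and Hao1 at -2.11 lie farthest from 0.

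Promoter windows of 4 genes are shown, since many peroxisomal genes are targets of PPARA, a receptor that binds a direct repeat of AGGTCA spaced by 1 base. Pex11a, Ehhadh and Pecr were the members with the largest changes, while Cat did not pass and is shown because its window before the start held a match. The sequences are the 250 bases before the annotated start, from RefSeq on build GRCm38.p6, all on the minus strand and written 5′ to 3′. Capitals mark a match to AGGTCA, any 1 base and AGGTCA again, on either strand, with at most 2 mismatches among the 12 fixed letters. Pex11a lies on chr7:79743132-79743381, Ehhadh on chr16:21787835-21788084, Pecr on chr1:72284322-72284571 and Cat on chr2:103485154-103485403.
Pex11a: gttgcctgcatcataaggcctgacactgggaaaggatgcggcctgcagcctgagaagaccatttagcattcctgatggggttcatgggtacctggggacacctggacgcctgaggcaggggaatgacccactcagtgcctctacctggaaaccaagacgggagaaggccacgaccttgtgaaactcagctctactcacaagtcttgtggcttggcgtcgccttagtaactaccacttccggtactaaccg
Ehhadh: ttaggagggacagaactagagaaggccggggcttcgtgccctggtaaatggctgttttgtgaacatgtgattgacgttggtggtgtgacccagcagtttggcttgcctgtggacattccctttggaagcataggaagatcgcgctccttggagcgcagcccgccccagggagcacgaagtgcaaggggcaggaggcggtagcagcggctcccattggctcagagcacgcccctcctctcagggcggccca
Pecr: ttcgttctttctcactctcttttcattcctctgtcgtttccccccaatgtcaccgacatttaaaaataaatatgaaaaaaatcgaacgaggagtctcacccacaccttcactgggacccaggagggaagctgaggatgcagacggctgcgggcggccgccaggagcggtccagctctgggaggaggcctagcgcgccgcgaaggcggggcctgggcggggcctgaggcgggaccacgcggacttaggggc
Cat: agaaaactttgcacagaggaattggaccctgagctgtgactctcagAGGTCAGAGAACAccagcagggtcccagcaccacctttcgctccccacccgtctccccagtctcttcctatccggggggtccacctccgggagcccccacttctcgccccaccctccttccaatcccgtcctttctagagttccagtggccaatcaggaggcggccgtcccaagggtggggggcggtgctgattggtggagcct
Cat held a match whose first base is at position -204, counting the base before the start as -1, and the other 3 held none. Over the full windows, which also take in 50 bases after the start, 28 of the 34 genes were found in the table, with 33 windows. Of these windows 2 held a match (6.06%), that of Cat and 1 of the 2 of Acox2, against 1268 of 32851 windows of all genes (3.86%). No window of the set held a match with 1 mismatch or none, against 0.554% of all windows. The share in the set rested on 2 of 33 windows, too few to tell whether it differed from that of all genes. The called genes Amacr and Pxmp2 had no window. Sequence outside these windows was not searched, so a window without a match does not show that the gene lacks such a repeat. The median G and C content was 58.0% in the 33 windows and 52.7% in all windows.

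With listed age as a covariate, 83 of 20242 genes passed (0.41%), and of the 8 peroxisomal genes only Pecr did (log2 fold change -1.59, adjusted p = 0.0312 by limma). The fold changes of the other 7 kept their sign, at 1.20 for Pex11a, 1.05 for Ehhadh, -0.66 for Acox2, -0.70 for Pex26, -0.41 for Amacr, -0.55 for Pxmp2 and -0.56 for Pex7. Abcd2 passed in that fit, with a log2 fold change of -2.47 (adjusted p = 0.0247 by limma). The slope on listed age within genotype passed for 0 of the 30 genes and for 0 of all 20242 genes by limma. At an unadjusted p under 0.05 it passed for 1 of the 30 and for 768 of all genes. Since listed ages do not overlap between the genotypes, this fit separates age from genotype poorly. A call lost in it cannot be assigned to either.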

How the data were processed

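An Affymetrix mouse exon array was hybridised with liver RNA from each of 3 Cpt2KO and 3 WT mice. The authors deposited log2 values per probe set. Partek, RMA and build mm9 are named without versions, per the submitters' processing notes. Without scanner files no detection limit was set, and the number of arrays limits the precision. Genes were named from the platform annotation, in which 25469 of 115050 probe sets named 1 gene, 2286 several and 87295 none. The fit covered all 20242 genes (limma 3.58.1, R 4.3.3; lmFit, then eBayes; Cpt2KO minus WT, two-sided, no covariate, no filter) with Benjamini-Hochberg adjustment and a threshold of 0.05, and the test was tested on simulated data. SE and intervals are those of the moderated test. The member genes and lists were chosen with earlier results of these data known. Every member is accounted for. Members past the threshold get every array's value, and of the other peroxisomal genes up to 6 past it with the largest change are named by rule. Acot8, Tmem135 and Uox were named after their values were seen. Protein targeting signals were not analysed here. The alternatives covered normalization, filters on dim genes, probe set choice, variance model, array weights, listed age, a replicate block and each array left out.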

Additional observations from a re-analysis of the deposited data

How the results depend on the processing

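In the 17 alternatives the fold changes of the 8 called peroxisomal genes kept their sign, and the median of the 30 genes stayed between -0.054 and 0.041. The number that rose, 2, was 4 with genes above the 25th percentile of level and 4 with genes above the median level, as Pex19 and Agps then passed, and 0 with listed age. The number that fell, 6, was 8 with genes above the median level, as Cat and Phyh then passed. It was 1 with every probe set tested separately, 2 with unmoderated statistics and 2 with listed age. With arrays centred on their medians it was 4, and with an array left out 3 to 5, with 3 without WT replicate 1. Over all genes the number that fell, 707, was 520 with arrays centred and 477 to 631 with an array left out. Of the other peroxisomal genes the number that rose, 4, was 0 with every probe set tested separately, 2 with unmoderated statistics, 1 with listed age and 2 to 3 with an array left out. The number that fell, 5, was 1, 3 and 1 in the first 3 of these. Cpt2 fell by 0.99, with adjusted p = 0.0692 by limma with every probe set tested (log2 fold change -0.99) and 0.0753 with listed age (-1.24). The 2 genotypes share replicate numbers, but same-numbered arrays did not deviate together throughout (r = 0.071, 0.18 and -0.082 for replicates 1, 2 and 3), and 2 of 3 Cpt2KO arrays correlated best with their own number. With a replicate block 2 of the 30 genes rose and 5 fell, Pex7 and Pxmp2 losing the call and Abcd2 gaining it (adjusted p = 0.00544 by limma), and 2 of the other peroxisomal genes rose. Over all genes 90 rose and 99 fell with every probe set tested, 388 and 264 without moderation and 35 and 48 with listed age, against 960 and 707. Without WT replicate 2 or 3, 538 and 582 rose. The causes were not tested. Testing every probe set raises the number of tests. It also gave larger SEs at unchanged fold changes, such as 0.13 against 0.09 for Pex26 and 0.14 against 0.10 for Pecr.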

Other observations

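Genes next to the 8 called peroxisomal genes in the RefSeq gene order gave 16 neighbours, of which 15 were measured and 2 were called, where 8.24% of all genes and 14.7% of those above the median level were called. Wdr93, beside Pex11a, rose in Cpt2KO livers, with a mean of 3.86 in Cpt2KO livers and 3.19 in WT livers (log2 fold change 0.67, adjusted p = 0.0141 by limma). Plin1, the lipid droplet gene on the other side of Pex11a, did not pass (log2 fold change -0.15, adjusted p = 0.524 by limma). Mreg, beside Pecr, fell, with a mean of 5.97 in Cpt2KO livers and 6.39 in WT livers (log2 fold change -0.42, adjusted p = 0.0317 by limma). Whether probes of neighbouring genes overlap was not tested.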
